A study of Mus musculus with 7 samples.

Results

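The proteasome subunits and regulators were taken as every gene on the array whose name begins with Psm, then 1 letter from a to g, then a number. The rule found 49 genes with 62 probes and 71 spots on each array, of 39429 probes and 43020 spots that were not controls. The RNA came from the quadriceps of C57BL/6 mice that were 3 months (90 days) old, with 1 mouse per array. There were 4 arrays from mice labelled WT and 3 arrays from AR113Q mice, a knock-in model of spinobulbar muscular atrophy (SBMA) in which the endogenous androgen receptor gene carries human sequence with an expanded CAG repeat, so that the mutant receptor is made wherever the mouse gene is active. The labels call the controls WT, whereas the results text of the study describes control mice that carry the humanized receptor with a short repeat, and which of these was used cannot be told from the labels. The design text adds the letters NCD to the AR113Q genotype and does not explain them.

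The proteasome degrades proteins that have been marked with ubiquitin, and in skeletal muscle it is known for its part in protein turnover and in atrophy. Its 20S core is a barrel of alpha rings, which gate the entry, and beta rings, which hold the proteolytic sites. The 19S cap binds the core to form the 26S proteasome: its base unfolds substrates with a ring of ATPases and its lid removes ubiquitin. In immune cells and after exposure to interferon, the 3 catalytic beta subunits are replaced by the immunoproteasome subunits Psmb8, Psmb9 and Psmb10, and the PA28 activator (Psme1 and Psme2) can take the place of the cap. Dedicated chaperones assemble core and cap and are not part of the finished particle.

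Values are log2 of the background-subtracted spot intensity after quantile normalization, called log2 signal below, and a difference is AR113Q minus WT on that scale. Of the 49 genes, 47 had a probe that stood well above background on 3 or more of the 7 arrays and were tested. The other two, Psma8 and Psmb11, which encode the testis-type alpha subunit and the thymus-type beta subunit, were well above background on 0 and 1 arrays. One gene that matched the rule, Psmc3ip, encodes a partner of meiotic recombinases and is no proteasome gene, so 46 proteasome genes were described. The brightest probes of Psme2b also list the RefSeq transcript of Psme2, a near-identical copy, and their signal cannot be assigned to either gene. The 46 genes were well above background on all 7 arrays.

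A gene was called higher or lower when its adjusted p was at most 0.05 in limma, adjusted by Benjamini-Hochberg over the 16577 genes that were tested. Of the 46 proteasome genes, 26 were higher in AR113Q, 5 were lower and 15 were not called. Over all genes tested, 21.0% were called higher and 22.6% lower. A change of at least 2-fold together with the call was found for 9 proteasome genes upward and 3 downward, against 11.2% and 13.1% of all genes. For 27 proteasome genes every AR113Q array lay above every WT array, and for 6 every AR113Q array lay below, against 24.2% and 25.1% of all genes. The median difference of the 46 genes was 0.62, and that of all genes was -0.01.

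The direction differed between the 26S subunits and the immunoproteasome genes. Of the 31 measured subunits of the 26S proteasome, 24 were higher and 0 were lower, at a median difference of 0.80. None of the 5 immunoproteasome genes was higher and 3 were lower, at a median of -0.99. The 7 assembly chaperones held 1 higher and 2 lower genes, at a median of -0.21. These chaperone counts lie near the shares over all genes, 21.0% higher and 22.6% lower. The genes of each role were grouped with earlier results of these data known, and these counts are descriptions.

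**Figure D1:**
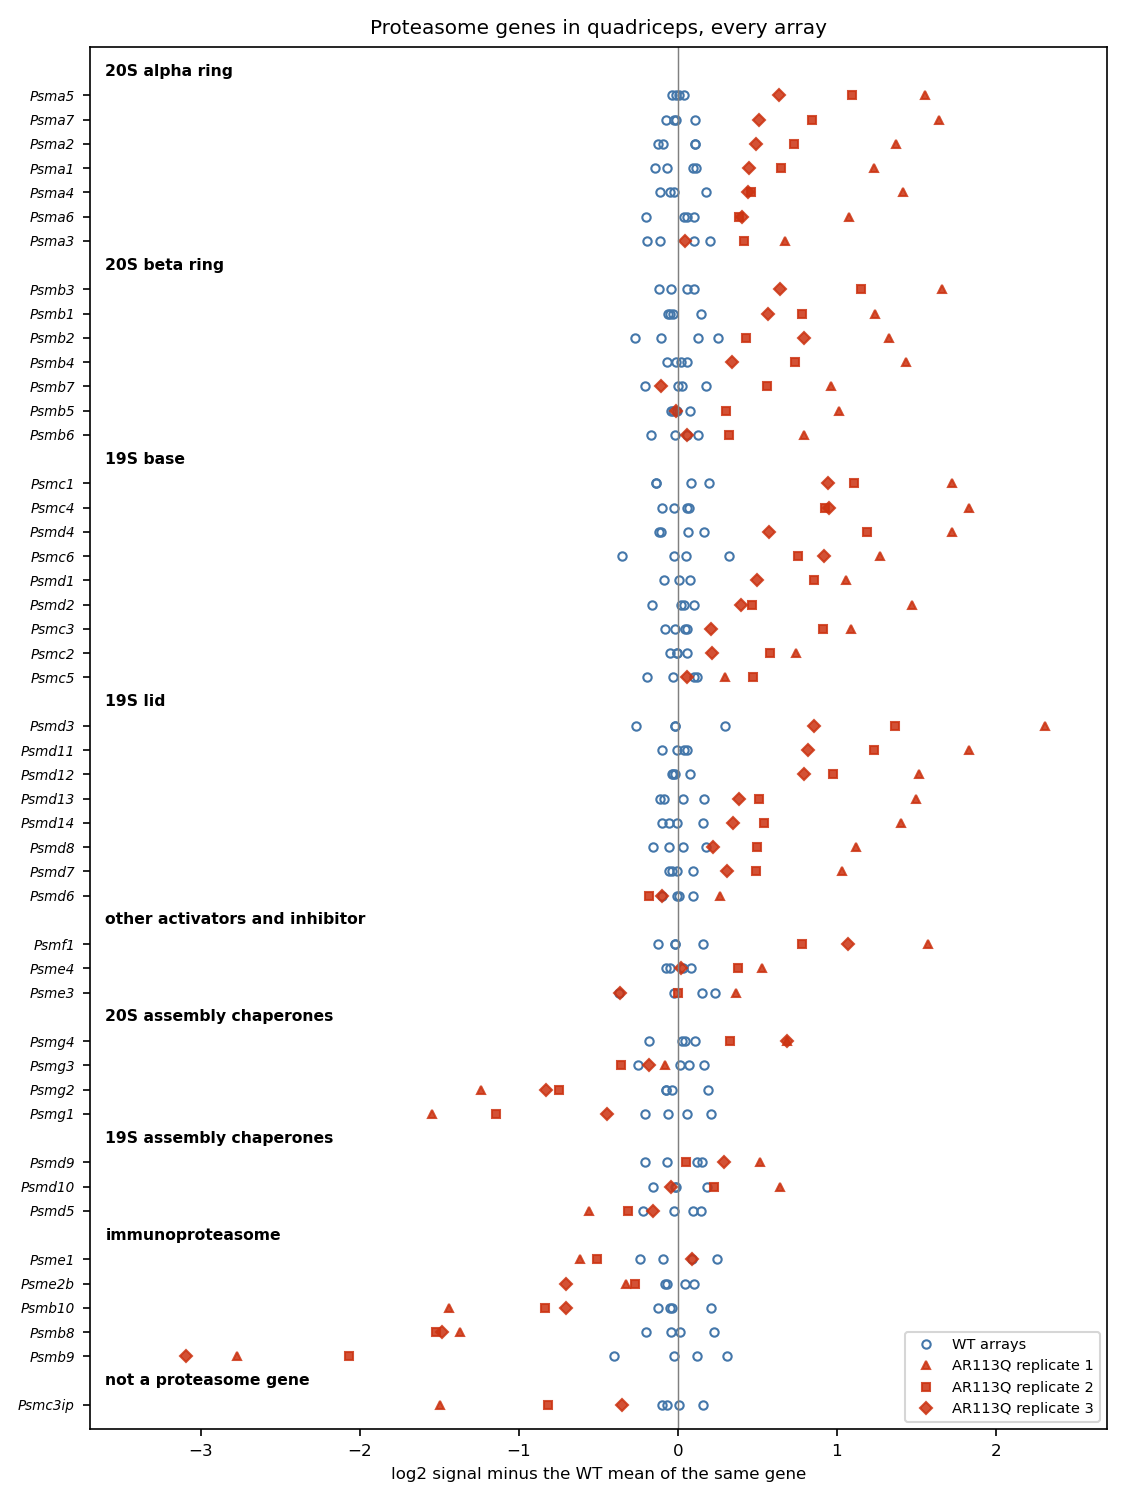
Log2 signal of each array minus the WT mean of the same gene (horizontal axis), for the 46 proteasome genes and Psmc3ip, grouped by role. Open circles are the 4 WT arrays and filled symbols the 3 AR113Q arrays. Most 26S subunits have all AR113Q symbols to the right of the circles, and Psmb8, Psmb9 and Psmb10 have all of them to the left.

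The size of the rise differed between the AR113Q arrays. The median deviation of the 31 subunits from their WT means was 1.33 on AR113Q replicate 1, 0.65 on replicate 2 and 0.44 on replicate 3. On the WT arrays it lay between -0.04 and 0.06. AR113Q replicate 1 was the highest of the 7 arrays for 30 of the 31 subunits, and the median deviation of all genes on that array was -0.03. Without AR113Q replicate 1, 16 proteasome genes were called higher and 3 of them by 2-fold or more, in place of 26 and 9, and the medians of the core and the cap were 0.54 and 0.56. All 5 genes called lower were also called lower without it. Leaving out WT replicate 1, 2, 3 or 4 left 15, 16, 17 and 16 genes called higher, and leaving out AR113Q replicate 3 gave 32 higher and 16 by 2-fold or more.

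The arrays lay on 5 slides, and slide 2, which carried WT replicate 2 and AR113Q replicate 1, was the only one with both genotypes. Within slide 2, 31 of 31 subunits were higher on the AR113Q array at a median difference of 1.38, and 0 of 5 immunoproteasome genes were higher, at a median of -1.17. With slide as a random effect, 26 genes were higher and 5 lower. When slide was a fixed effect, the pair on slide 2 alone informed the difference, and 0 of the 46 genes and 0 of all genes were called by limma; at an unadjusted p under 0.05 there were 30 higher and 5 lower proteasome genes, where 37.4% of all genes passed in either direction, and the smallest adjusted p among them was 0.0523.

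**Figure D2:**
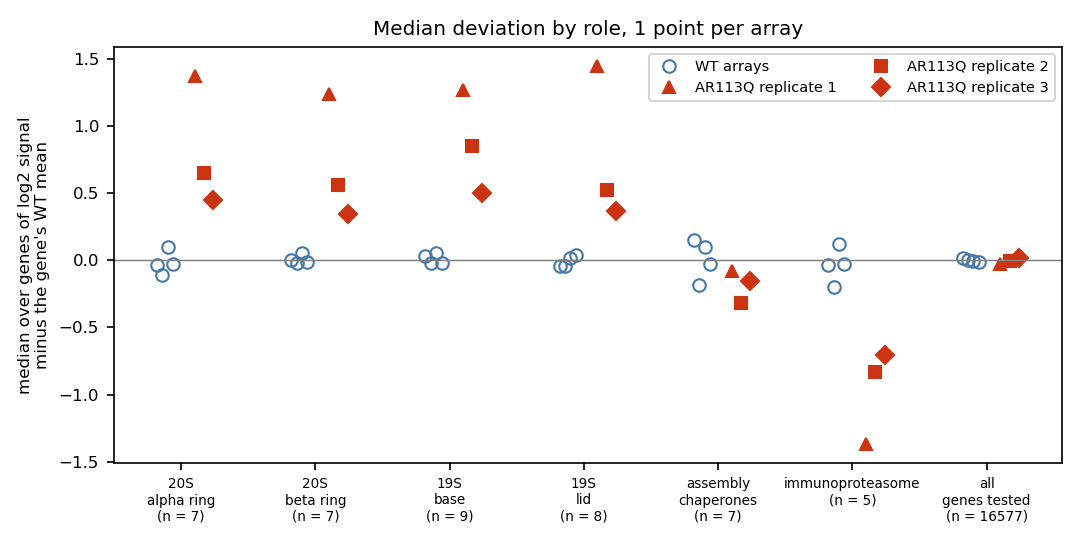
Median over the genes of a role of log2 signal minus the gene's WT mean (vertical axis), 1 point per array, with n the number of genes. Open circles are WT arrays and filled symbols AR113Q arrays, spread sideways for visibility. Both rings of the core and both parts of the cap lie above 0.3 on all AR113Q arrays with replicate 1 highest, the immunoproteasome lies below -0.7, and all genes tested lie close to 0.

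In the 20S core, 10 of 14 measured genes were higher and 0 were lower, at a median of 0.81. Of the 7 alpha genes, 6 were called. The alpha gene with the greatest difference was Psma5, with log2 signals of 12.50, 12.54, 12.57 and 12.53 in WT and 14.09, 13.63 and 13.17 in AR113Q. The WT arrays lay within 0.1 of each other and every AR113Q array was above them, a 2.14-fold rise (difference 1.09 ± 0.22 SE, adjusted p = 0.00482). Psma7 followed with WT signals of 13.47, 13.52, 13.53 and 13.65 against 15.19, 14.39 and 14.05, a difference of 0.999 ± 0.257 (adjusted p = 0.0151). Psma1 and Psma2 rose by 0.78 and 0.87. Psma4 rose by 0.77 on the probe used; its other probe gave 0.53 (adjusted p = 0.0577 over all probes), and without AR113Q replicate 1 the difference was 0.45 (adjusted p = 0.0559). Psma6 was the smallest rise among the called alpha genes (0.62 ± 0.21, adjusted p = 0.0409), and was 0.39 without AR113Q replicate 1 (adjusted p = 0.0895). Psma3 was not called: its difference was 0.38 (95% confidence interval -0.07 to 0.83, adjusted p = 0.15), and AR113Q replicate 3 lay within the WT range. It was called higher in the authors' normalized values (0.40, adjusted p = 0.0397) and without AR113Q replicate 3 (0.55, adjusted p = 0.0447).

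The array annotation, on mm9, places the probes of Psma4 and Psma5 on other chromosomes than the one RefSeq gives for the gene. The same held for the dimmer of the 2 Psmc1 probes. Whether copies of these transcripts add to the signals was not tested. Of the 62 probes, 49 lay on the chromosome of their gene and 9 had no position.

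In the beta ring, Psmb1, Psmb2, Psmb3 and Psmb4, which carry no proteolytic site, were all higher. Psmb3 had WT signals of 14.83, 14.65, 14.73 and 14.87 and AR113Q signals of 16.43, 15.92 and 15.42. The groups did not overlap, and the rise was 2.22-fold (1.15 ± 0.24, adjusted p = 0.0056). Psmb1 rose by 0.86 ± 0.19 (adjusted p = 0.0074), Psmb2 by 0.85 and Psmb4 by 0.84.

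None of the 3 catalytic subunits of the standard core was called. Psmb5, which carries the chymotrypsin-like site, had signals of 15.32, 15.35, 15.33 and 15.44 in WT and 16.37, 15.66 and 15.35 in AR113Q, a difference of 0.43 (95% confidence interval -0.11 to 0.98, adjusted p = 0.173). Psmb6, the caspase-like site, had 14.75, 14.61, 14.68 and 14.46 against 15.42, 14.95 and 14.68 (0.39, interval -0.07 to 0.85, adjusted p = 0.149). Psmb7, the trypsin-like site, had 13.58, 13.37, 13.76 and 13.61 against 14.55, 14.14 and 13.47 (0.47, interval -0.11 to 1.05, adjusted p = 0.164). In each, AR113Q replicates 1 and 2 lay above all WT arrays and replicate 3 within them. The intervals include 0 and also the core median of 0.81, so a rise of that size cannot be separated from none for these genes, and whether they differ from the structural subunits was not tested. Their differences depended on which array was left out. Without AR113Q replicate 1, Psmb5, Psmb6 and Psmb7 were at 0.15, 0.19 and 0.23 (adjusted p = 0.497, 0.406 and 0.465). Without AR113Q replicate 3, Psmb5, Psmb6 and Psmb7 were all called higher.

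In the 19S cap, 14 of 17 genes were higher and 0 were lower, at a median of 0.80. Of the 9 base genes, 8 were called. Psmc1, an ATPase of the ring, had WT signals of 14.58, 14.35, 14.69 and 14.36 and AR113Q signals of 16.22, 15.60 and 15.44. That was a 2.39-fold rise without overlap (1.26 ± 0.22, adjusted p = 0.00261). Psmc4, another ATPase, had 12.58, 12.41, 12.57 and 12.49 against 14.34, 13.44 and 13.46 (1.24 ± 0.24, adjusted p = 0.00417). The ubiquitin receptor Psmd4 rose by 1.16 ± 0.26 (adjusted p = 0.00839). Psmc6, Psmd1, Psmd2 and Psmc3 rose by 0.98, 0.81, 0.78 and 0.74; for Psmd1 the spot of WT replicate 1 was marked as an outlier and left out, so n was 3 in WT. The Psmd1 call depended on leaving out this spot: with outlier spots kept the difference was 1.30 (adjusted p = 0.0629) and in the authors' normalized values 1.26 (adjusted p = 0.0687), neither called. Psmc2 was the smallest of the called base genes (0.51 ± 0.17, adjusted p = 0.0361). Without AR113Q replicate 1, Psmc2, Psmc3 and Psmd2 were at 0.40, 0.56 and 0.43 and were not called (adjusted p = 0.0945, 0.082 and 0.0629). Psmc5, the remaining ATPase, was not called, with WT signals of 11.62, 11.93, 11.92 and 11.79 against 12.11, 12.29 and 11.87 (0.28, interval -0.10 to 0.65, adjusted p = 0.207).

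The lid held the greatest rise among the members and also the 26S subunit whose difference was nearest to 0. Psmd3, a scaffold subunit, had WT signals of 13.59, 13.83, 13.83 and 14.14 and AR113Q signals of 16.15, 15.21 and 14.70. The groups were apart, and the rise was 2.85-fold (1.51 ± 0.32, adjusted p = 0.007). Psmd11 had 11.54, 11.48, 11.39 and 11.52 against 13.31, 12.72 and 12.30, a 2.45-fold rise (1.29 ± 0.23, adjusted p = 0.00321). Psmd12 rose by 1.10 ± 0.19 (adjusted p = 0.00293) and Psmd13 by 0.80, and Psmd14, the deubiquitinase of the lid, rose by 0.76 ± 0.25 (adjusted p = 0.0402). Psmd7, which pairs with Psmd14, rose by 0.61 ± 0.19 (adjusted p = 0.034). Without AR113Q replicate 1, Psmd14, Psmd7 and Psmd13 were at 0.44, 0.40 and 0.45 and were not called (adjusted p = 0.0627, 0.07 and 0.0607). Psmd8 lay apart from the WT arrays on all 3 AR113Q arrays and missed the threshold (0.61 ± 0.23, adjusted p = 0.058).

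Psmd6 was the only 26S subunit with a difference below 0 in this fit. Its WT signals were 13.12, 13.01, 13.21 and 13.10 and its AR113Q signals 13.37, 12.93 and 13.01, a difference of -0.00 (interval -0.38 to 0.37, adjusted p = 0.986). The groups overlapped, and the sign turned positive under 5 other settings and with some arrays left out, as given in the closing section. The upper end of the interval lay below the lid median of 0.78.

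The immunoproteasome genes went the other way. Psmb9, which replaces Psmb6, had WT signals of 9.59, 8.88, 9.40 and 9.26 and AR113Q signals of 6.51, 7.21 and 6.19. Every AR113Q array lay far below every WT array, and the signal was 6.25-fold lower (-2.64 ± 0.27, adjusted p = 0.000356). This size rests on the background subtraction: the difference was -1.37 in the authors' normalized values (adjusted p = 0.00117), -1.66 after normexp correction and -1.77 on the mean spot intensity. Its probe lies at chr17:34319174-34319233 (mm9, minus strand).

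Psmb8, which replaces Psmb5, had WT signals of 10.17, 9.74, 9.90 and 9.95 and AR113Q signals of 8.57, 8.42 and 8.46. It was 2.75-fold lower (-1.46 ± 0.16, adjusted p = 0.000401), and its AR113Q arrays lay within 0.2 of each other. Its probe lies at chr17:34337771-34337830 (mm9, plus strand). Psmb10, which replaces Psmb7, is encoded elsewhere, with its probe at chr8:108459677-108459736 (mm9, minus strand). It had 11.75, 11.74, 11.99 and 11.66 in WT and 10.35, 10.95 and 11.09 in AR113Q, and was 1.99-fold lower (-0.99 ± 0.21, adjusted p = 0.00617). AR113Q replicate 1, which was highest for the 26S subunits, was the lowest array for 2 of the 5 genes of this group, Psmb10 and Psme1.

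The PA28 genes were not called in this fit. Psme1 had WT signals of 11.81, 11.66, 12.14 and 11.98 and AR113Q signals of 11.28, 11.39 and 11.99 (-0.34, interval -0.84 to 0.15, adjusted p = 0.229). AR113Q replicate 3 lay within the WT range and the other two below it. The probe read as Psme2b, which may carry Psme2 signal, had 12.17, 12.35, 12.29 and 12.18 against 11.92, 11.98 and 11.54, with all AR113Q arrays below WT (-0.43 ± 0.16, adjusted p = 0.0607). It was called lower under 5 of 20 alternatives, among them normexp correction (-0.46, adjusted p = 0.0244) and the authors' values (-0.45, adjusted p = 0.0247), and Psme1 under 1, without AR113Q replicate 3 (-0.56, adjusted p = 0.0416). A Psme2b probe that does not list Psme2 gave 0.17 ± 0.33.

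At each catalytic site the standard and the immunoproteasome subunit could be set against each other on the same array, as the difference of their log2 signals relative to WT. This ratio was lower in AR113Q for all 3 pairs: 8.19-fold for Psmb9 over Psmb6, 2.76-fold for Psmb10 over Psmb7 and 3.71-fold for Psmb8 over Psmb5. For Psmb9 over Psmb6 the AR113Q arrays stood at -3.57, -2.39 and -3.15, and the WT arrays between -0.39 and 0.18. For Psmb8 over Psmb5 they stood at -2.38, -1.82 and -1.47, and the WT arrays between -0.19 and 0.27. The Psmb10 over Psmb7 ratio varied most, at -2.40, -1.40 and -0.59, with WT between -0.15 and 0.16. No AR113Q array overlapped the WT arrays in any pair. The pairs were set up with the values known, and these are descriptions with no test. The Psmb9 over Psmb6 ratio inherits the dependence of Psmb9 on the background subtraction: it was 3.53-fold lower in the authors' normalized values, 4.19-fold after normexp correction and 4.53-fold on the mean spot intensity. Within slide 2 the Psmb10 over Psmb7 ratio was 5.91-fold lower.

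**Figure D3:**
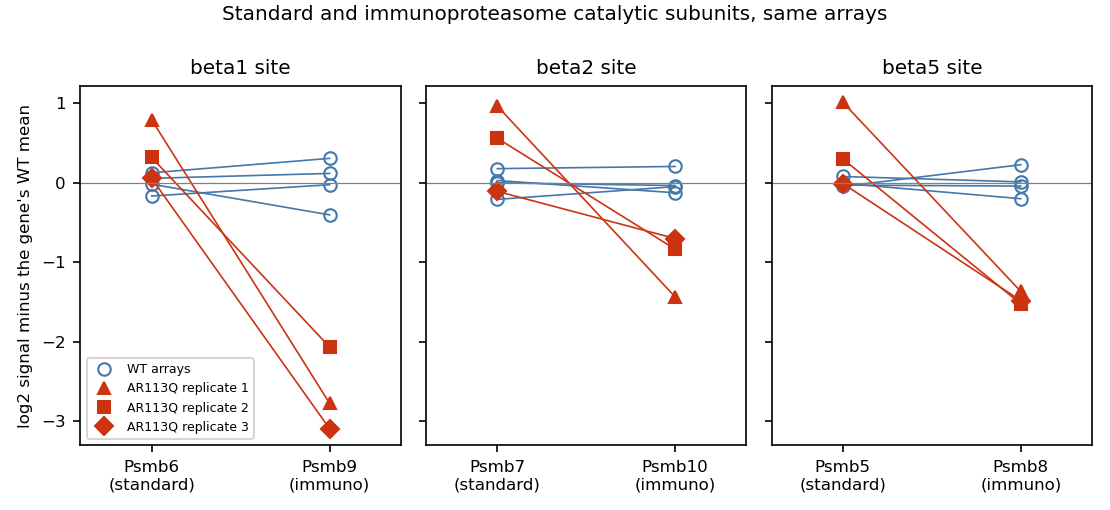
Log2 signal minus the gene's WT mean (vertical axis) for each standard catalytic subunit and its immunoproteasome counterpart, with a line joining the values of 1 array. Blue open circles are the 4 WT arrays and red filled symbols the 3 AR113Q arrays. The WT lines stay near 0, and all AR113Q lines descend, most steeply from Psmb6 to Psmb9.

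Interferon-inducible and antigen-processing genes, which share regulators with the immunoproteasome, were listed beside it. Of 15 listed genes 9 were well above background on all 7 arrays, and of these 0 were higher and 6 were lower, at a median of -0.84 (21.0% and 22.6% over all genes). Cxcl9, a chemokine induced by interferon gamma, was well above background on all 4 WT arrays and on 0 AR113Q arrays, so that it passed the filter through the WT arrays alone and had to differ. It was at least 6.86-fold lower by the background-subtracted signal, which is given as a description (adjusted p = 0.00106 with no filter on dim probes). With the background handled otherwise its difference was smaller, -0.64 in the authors' normalized values, -1.12 after normexp correction and -1.12 on the mean spot intensity. Isg15, a ubiquitin-like protein induced by interferon, was 3.80-fold lower (-1.92, adjusted p = 0.000461), but 2.46-fold in the authors' normalized values (-1.30, adjusted p = 0.000777) and 2.68-fold after normexp correction. Nlrc5 and Irf1, both regulators of class I and immunoproteasome genes, were lower by 3.51-fold and 2.04-fold; Nlrc5 and Tap1 were well above background on all WT arrays but on 2 of 3 AR113Q arrays, and are not in the count above. On chromosome 17 the RefSeq order (GRCm38.p6) is Psmb9, Tap1, Psmb8, Tap2, and the peptide transporter genes Tap1 and Tap2 were lower as well (-0.85 and -0.65, adjusted p = 0.0362 and 0.00675). Tapbp, a loading factor for class I molecules, was not called (-0.27, adjusted p = 0.252).

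Fewer cells of a type and less RNA per cell cannot be told apart in whole muscle. Leukocytes express the immunoproteasome strongly. Of 10 leukocyte markers 8 were measured, 1 (Cd14, 1.42, adjusted p = 0.00149) was higher and 1 (Csf1r, -1.15, adjusted p = 0.0097) was lower. Their median was -0.07. Over all genes, 21.0% were called higher and 22.6% lower. The summed signal of the 8 markers lay between 6535 and 10330 on WT arrays and between 5444 and 6152 on AR113Q arrays. This gap came from Csf1r, the brightest of the 8 on every array. Csf1r had log2 signals of 12.92, 12.71, 12.06 and 12.16 in WT and 11.10, 11.71 and 11.13 in AR113Q. The T cell marker Cd3e differed by 0.09 (adjusted p = 0.723), the B cell marker Cd79b by -1.18 (adjusted p = 0.0595), and Cd3g and Cd8a were not well above background on 3 arrays; the pan-leukocyte marker Ptprc differed by -0.86 (adjusted p = 0.0856). The part of leukocyte content in the immunoproteasome values was not tested. The 6 muscle fiber markers, among them Acta1, Myh4 and Tnnt3, were at high signal on all arrays, with summed signals of 544200 to 642500 in WT and 387200 to 546300 in AR113Q. Of these, Ckm (-0.80, adjusted p = 0.0102) and Mylpf (-1.37, adjusted p = 0.00417) were lower, and the part of such shifts in the 26S values was not tested.

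Of the 7 assembly chaperones 1 was called higher and 2 lower, near the 21.0% and 22.6% over all genes. Psmg1 and Psmg2 form a dimer on which the alpha ring is built, and both were lower. Psmg1 had WT signals of 11.21, 10.94, 11.35 and 11.08 and AR113Q signals of 9.60, 10.005 and 10.698, and was 2.06-fold lower (-1.04 ± 0.26, adjusted p = 0.0131). Psmg2 had 9.55, 9.33, 9.29 and 9.29 against 8.13, 8.61 and 8.53, and was 1.92-fold lower (-0.94 ± 0.17, adjusted p = 0.00348). The groups did not overlap in either gene.

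Psmg3 and Psmg4 form the second dimer. Psmg4 was higher, with 7.26, 7.05, 7.34 and 7.28 in WT and 7.92, 7.56 and 7.92 in AR113Q (0.57 ± 0.16, adjusted p = 0.0223). Psmg3 overlapped between the groups and was not called (-0.21, interval -0.58 to 0.17, adjusted p = 0.335). The chaperone Pomp, which acts on the beta ring and does not match the name rule, differed by 0.19 (adjusted p = 0.383). The 3 chaperones of the cap base were not called: Psmd5 at -0.34 (adjusted p = 0.132), Psmd9 at 0.29 (adjusted p = 0.213) and Psmd10 at 0.28 (adjusted p = 0.282). A dimmer Psmd10 probe had the opposite sign (-0.11).

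A further 3 members regulate the core. Psmf1, known as the inhibitor PI31, had WT signals of 7.78, 7.89, 7.89 and 8.07 and AR113Q signals of 9.48, 8.69 and 8.98, a 2.21-fold rise without overlap (1.14 ± 0.21, adjusted p = 0.00321). Psme3 (PA28 gamma), a nuclear activator, had 7.80, 7.62, 7.28 and 7.88 against 8.01, 7.65 and 7.28, with a difference of 0.00 (interval -0.52 to 0.52, adjusted p = 0.995). The sign of Psme3 changed with the scaling. Psme4 (PA200), another nuclear activator, differed by 0.31 (interval -0.07 to 0.69, adjusted p = 0.164), and its dimmer probe by -0.03. Psme4 was called higher under 1 of 20 alternatives, without AR113Q replicate 3. Psmc3ip, the recombinase partner, was lower (-0.89 ± 0.26, adjusted p = 0.0245) and was well above background on 6 of the 7 arrays.

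Genes that work with the proteasome under other names were taken from a list of 33, of which 31 were measured. Of these 17 were higher and 2 lower, at a median of 0.60, against 21.0% higher and 22.6% lower over all genes. Adrm1, a ubiquitin receptor of the cap, rose from WT signals of 13.87, 13.91, 13.89 and 13.80 to 15.44, 14.74 and 14.51 (1.03, adjusted p = 0.00745). Usp14, a deubiquitinase bound to the cap, rose by 0.83 (adjusted p = 0.0171), but the mean over its 2 probes differed by 0.30 (adjusted p = 0.179). Uchl5, the deubiquitinase that Adrm1 holds, was not called (0.02, adjusted p = 0.947).

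The greatest rise in the list was that of Ddi2, the protease that releases the transcription factor Nfe2l1 from the endoplasmic reticulum. Ddi2 had WT signals of 8.43, 9.03, 8.72 and 8.83 and AR113Q signals of 11.51, 11.20 and 10.69 (2.38, adjusted p = 0.000286). Nfe2l1, which is known to induce proteasome genes when proteasome activity is short, had 8.19, 8.29, 8.24 and 8.52 against 9.42, 9.07 and 9.26 (0.94, adjusted p = 0.00241). The groups were apart in both genes. Zfand2a, a stress-induced zinc finger protein that binds the cap, had 8.997, 9.01, 9.06 and 8.96 against 11.26, 11.28 and 11.13 (2.22, adjusted p = 5.67e-05). On this gene the AR113Q arrays lay within 0.2 of each other, unlike on the 26S subunits.

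Of the 10 measured genes of substrate delivery 8 were higher (21.0% over all genes). They included Vcp, the segregase that extracts ubiquitinated proteins, which rose by 0.76 (adjusted p = 0.00822). The 2 genes called lower were Zfand5, which activates the 26S proteasome and is known from muscle atrophy, and Uba6, a ubiquitin-activating enzyme. Zfand5 had 13.70, 13.93, 13.88 and 13.96 against 11.72, 13.02 and 12.40 (-1.49, adjusted p = 0.00401), but the mean over its 4 probes differed by -0.32 (adjusted p = 0.159). Uba6 differed by -0.71 (adjusted p = 0.0216), but its call was lost in 9 of 20 alternatives, with -0.24 after normexp correction (adjusted p = 0.173) and -0.14 in the authors' values (adjusted p = 0.228).

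**Figure D4:**
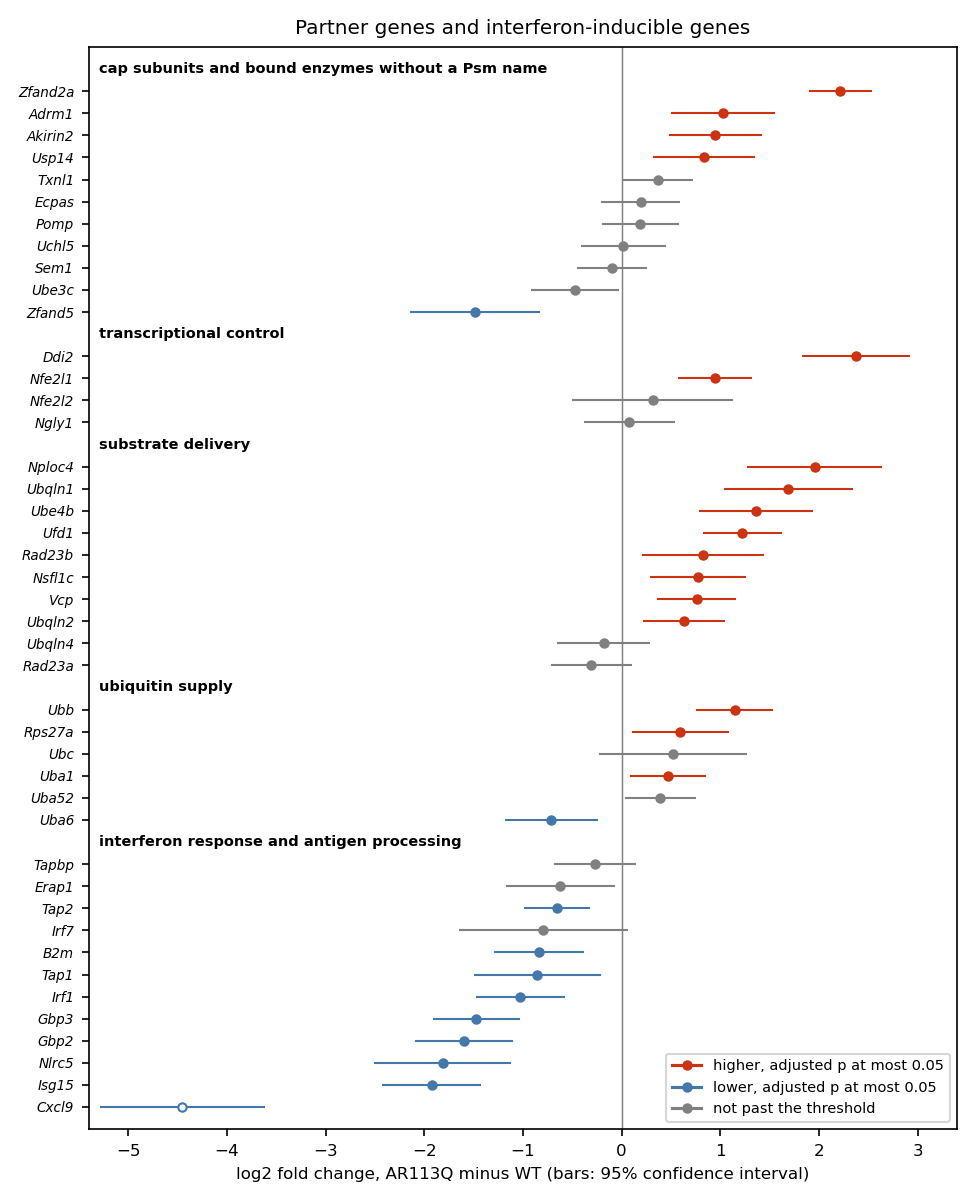
Log2 fold change, AR113Q minus WT, with its 95% confidence interval (horizontal axis) for the measured partner genes by role and for the interferon-inducible genes that were well above background on WT arrays. Red marks genes called higher, blue those called lower and grey those not called. The open symbol is Cxcl9, which was not well above background on the AR113Q arrays, so its position is not a measured size.

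Since Nfe2l1 is known to act through antioxidant response elements, the letters TGACNNNGC, the core of that element, were searched on both strands of the RefSeq promoter windows (GRCm38.p6, 250 bases before to 50 bases after the start), which were at hand for 40 of the 48 proteasome genes of the rule. The core was found in 4 of the 25 windows of 26S subunits (16.0%), against 14.0% of the 27025 windows of all genes, a similar share. The 4 sites are shown because they are the ones among subunit genes, with the match in capitals and up to 24 bases on each side, 5′ to 3′ on the strand of the gene.
Psmb5: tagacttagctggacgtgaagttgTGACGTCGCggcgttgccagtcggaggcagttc
Psmb6: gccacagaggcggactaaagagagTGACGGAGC
Psmc6: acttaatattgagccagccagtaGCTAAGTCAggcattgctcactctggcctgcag
Psmd12: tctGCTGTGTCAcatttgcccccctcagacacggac

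These sequences are chr14:54618010-54618066 (minus strand) for Psmb5, chr11:70525324-70525356 (plus) for Psmb6, chr14:45329574-45329629 (plus) for Psmc6 and chr11:107479278-107479313 (plus) for Psmd12. The match in Psmb5 lies 47 to 39 bases before the start and that in Psmb6 ends at the last base before it. In Psmc6 and Psmd12 the match is on the opposite strand, at positions -227 to -219 and -247 to -239 from the start. Of these 4 genes, Psmc6 and Psmd12 were called higher and Psmb5 and Psmb6 were not. The CCAAT box was found in 10 of the 25 windows (40.0%, against 41.1% of all). The core of the interferon-stimulated response element, searched in the same way, was found in 1 of the 6 immunoproteasome windows (Psme1), 2 of the 25 26S windows (Psmb3 and Psmd4), 2 of 6 assembly chaperone windows (Psmd9 and Psmg4) and 3.99% of all windows.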

How the data were processed

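The authors labelled cRNA made from total RNA with Cy3 and hybridized it to single-dye Agilent arrays; Feature Extraction 10.7.3.1, named in the submitters' processing notes, read the spots. The deposited scanner files hold a background-subtracted intensity for each spot, not normalized between arrays. A deposited table of log2 values, quantile normalized by the authors, served as an alternative. On each array 18785 to 22013 probes (47.6% to 55.8%) stood well above background, 94 to 151 spots per array were marked as outliers and 0 were saturated; the number of arrays limits the precision.

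Log2 of the processed intensity was quantile normalized after outlier and control spots were removed, spots of a probe were averaged, and 20991 probes that were well above background on 3 or more arrays were kept. A gene was its kept probe with the highest mean, named through RefSeq accessions of the GRCm38.p6 table where they matched (28330 probes). The comparison of genotypes used lmFit and eBayes of limma 3.58.1 under R 4.3.3. The procedure was tested on simulated data. With 1 mouse per array, the p-values measure the spread between arrays, which holds differences between mice, between hybridizations and between slides.

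The members, roles and lists were chosen with earlier results of these data known. Genes named with values are all immunoproteasome genes, chaperones and regulators, the 2 highest and 2 lowest of each part of core and cap, the 2 extremes of each other list, and Nfe2l1, Ddi2, Vcp, Pomp, Adrm1, Uchl5 and Usp14. Psmb7, Ptprc, Nlrc5, Irf1, Tap1, Tap2 and the further subunits given by value alone were added after their values were seen. The alternatives were 75th percentile scaling, normexp (offset 50), the authors' values, no filter, a filter on all 7 arrays, the mean over probes, outlier spots kept, slide as a random or fixed effect, a replicate block, array weights, an intensity trend and each array left out; the mean spot intensity was added after seeing the data. Psme2 was not analysed here, and some genes of the lists are not reported here.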

Additional observations from a re-analysis of the deposited data

Results flagged for a closer look

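The 46 members with values on all 4 WT arrays were checked, Psmc3ip among them and Psmd1 not. By Dixon's test at the 95% level, 2 of these genes had 1 WT array apart from the others. Chance gives this in about 1 of 20 groups. WT replicate 3 had a Psmd12 log2 signal of 13.857, and the next array stood at 13.76, a gap of 0.84 of the range of the group. WT replicate 1 had a Psmg2 signal of 9.5517, next to 9.33, a gap of 0.837 of the range. Both gaps are small beside the differences from AR113Q, and Psmd12 was called higher and Psmg2 lower with any single array left out.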

How the results depend on the processing

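The 5 genes called lower (Psmb8, Psmb9, Psmb10, Psmg1, Psmg2) were called lower under 19 of the 20 alternatives, the exception being slide as a fixed effect. Of the 26 called higher, 17 were called with no filter on dim probes, where 31131 genes share the adjustment, and at least 24 under each other scaling, background, filter, weighting and trend setting. Of these 26, 13 (Psma2, Psma5, Psma7, Psmb1, Psmb3, Psmc1, Psmc4, Psmc6, Psmd3, Psmd4, Psmd11, Psmd12 and Psmf1) lost the call only with slide as a fixed effect, and 9 (Psma4, Psma6, Psmb4, Psmc2, Psmc3, Psmd2, Psmd7, Psmd13 and Psmd14) lost it under 8 to 10 of the 20 alternatives, among them the removal of any 1 of the 4 WT arrays. Psma1, Psmb2, Psmd1 and Psmg4 lost it under 2 to 5. With slide as a fixed effect there were 0 genes higher, 0 lower, 0 higher by 2-fold and 0 lower by 2-fold, and the medians of the core and cap were 1.34 and 1.53. That of the assembly chaperones reversed to 0.17. With 1 array left out, the genes called higher numbered 15 to 32 and those higher by 2-fold 3 to 16.

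Pairing by replicate number was checked: the deviations of same-numbered arrays correlated at 0.04, -0.02 and 0.16 across genes, so the numbers were not taken to pair the mice. The replicate block gave 13 genes higher and 5 lower, and all 13 were among the 26.

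Differences near 0 changed sign. Psmd6 was 0.0163 with 75th percentile scaling, 0.0051 with normexp, 0.0286 in the authors' values, 0.37 with slide fixed, 0.0056 on mean intensity and -0.14 to 0.0837 with 1 array left out. Psme3 was -0.0642 with 75th percentile scaling, -0.0026 with slide random, -0.0059 with array weights and -0.18 to 0.19 with 1 array left out. Uchl5 was -0.0164 in the authors' values, -0.0028 with slide random, -0.0412 with array weights and -0.13 to 0.0937 with 1 array left out. With slide fixed, Psmg3 was 0.17 and Tapbp 0.0699. The causes were not tested.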

Other observations

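Markers of other cell types were measured on the same arrays. Over all genes, 21.0% were called higher and 22.6% lower. All 3 adipocyte markers were lower in AR113Q (Adipoq by -2.71, adjusted p = 0.0012; Plin1 by -1.39, adjusted p = 0.04; Cfd by -1.76, adjusted p = 0.00235), and their summed signal lay between 30670 and 60260 on WT arrays and between 10360 and 19020 on AR113Q arrays. Of the 4 fibroblast markers, Col1a1, a fibrillar collagen, and Lum, a proteoglycan, were lower (-3.27 and -2.39, adjusted p = 0.00232 and 0.00306), and Pdgfra and Dcn were not called (-0.27 and 0.41). Of the 5 endothelial markers 1 was higher (Pecam1, 0.60, adjusted p = 0.0185), and of the 3 erythroid markers 0 were called by limma, with 0 at an unadjusted p under 0.05.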
